A study of Mus musculus with 10 samples.

Results

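Interneurons with the marker genes of the caudal ganglionic eminence (CGE) were examined in single-cell RNA-seq libraries from the cortex of E16.5 mouse embryos, 1 library per embryo. The embryos were 3 wild type (WT, Gatad2b +/+), 4 heterozygous (Het, Gatad2b stop/+) and 3 homozygous mutant (KO, Gatad2b stop/stop). The stop allele is Gatad2b tm1a(EUCOMM)Hmgu on a C57BL/6N-A tm1Brd background. Its LacZ trapping cassette sits in an intron and is expected to truncate the transcript. The later exons are kept, so 3′ UMIs of Gatad2b need not vanish in KO embryos if splicing skips the cassette. The study found no Gatad2b protein in stop/stop cerebellum by western blot or in stop/stop cortex by staining. The allele is neither limited to interneurons nor to the cortex. A cell was kept with at least 1000 UMIs (unique molecular identifiers, 1 per captured RNA molecule) and at most 10% mitochondrial UMIs. The members were chosen by their own counts: a kept cell was called a CGE cell when at least 2 of Adarb2, Htr3a, Prox1, Sp8 and Npas1 were detected, Dlx1, Dlx2, Dlx5 and Dlx6os1 gave at least 1 UMI together, Lhx6 gave none, Neurod6 gave at most 2, and fewer than 2 of Mki67, Top2a, Cdk1, Birc5 and Ube2c were detected. This left 2978 of 65779 kept cells, out of 80071 deposited barcodes. Detection of at least 2 markers held in 4958 cells, the Dlx condition left 4654 of these, the Lhx6 condition 4078, the Neurod6 condition 3658 and the cycling condition 2978.

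The caudal eminence is a transient proliferative zone of the ventral forebrain. Its GABAergic neurons migrate tangentially into the cortex and later become the interneurons that make vasoactive intestinal peptide (Vip), Reelin or cholecystokinin (Cck) and carry the ionotropic serotonin receptor Htr3a. Their transcription factors include Prox1, Sp8 and Nr2f2, while interneurons of the medial ganglionic eminence (MGE) depend on Nkx2-1 and Lhx6 and include the somatostatin class. Sp8, Meis2, Pax6, Etv1 and Tshz1 are also used by olfactory bulb precursors of the dorsal lateral eminence, and Isl1 and Ebf1 by striatal neurons. Gatad2b encodes a subunit of NuRD, a chromatin complex that joins histone deacetylation to nucleosome remodelling.

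The embryos gave 220 to 369 CGE cells each, with 1641122 to 3248128 UMIs over these cells. The median depth of a CGE cell ran from 6340.5 to 7918.5 UMIs over WT embryos, 7203.5 to 8202 over Het and 7671 to 8032 over KO. Of the barcodes, 2976 were distinct and 2 occurred in more than 1 library. The libraries carried 2 file name prefixes, whose meaning the labels do not state. WT 1 to 3 and Het 4 shared one of them, and Het 1 to 3 and KO 1 to 3 the other, so prefix and genotype cannot be told apart in KO against WT. Comparisons are therefore given also with the prefix as a covariate and within the second prefix, as KO against Het 1 to 3. Xist was high over all kept cells in WT 2, Het 1, Het 3, Het 4 and the 3 KO embryos. Of the WT embryos only WT 2 was Xist-high, so Xist status and genotype are largely mixed in KO against WT. Y-linked genes were expressed in WT 1 and Het 2, and WT 3 had neither signal (Xist 0.144 and Y-linked genes 0.196 CPM, UMI counts scaled to the library total). RNA of other cells was uneven among CGE cells. The choroid plexus gene Ttr gave 122 UMIs in WT 1 and at most 14 in any other embryo, microglial C1qa gave 55 in WT 3 and at most 4 elsewhere, and the globin Hba-a1 gave 3021 in KO 2, 2509 in WT 2, 1095 in Het 3, 537 in WT 3 and at most 53 elsewhere.

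Markers outside the rule met the label in part, and the cells were not uniform. The markers of the rule are a description, since they chose the cells. Adarb2, an RNA-editing family gene, was detected in 84.6 to 95.0% of CGE cells over the 10 embryos, Prox1 in 56.9 to 72.6%, Sp8 in 50.9 to 66.7%, Htr3a in 37.4 to 49.1% and Npas1 in 25.2 to 44.1%. Exactly 2 of the 5 were detected in 1296 cells (43.5%), 3 in 812 (27.3%), 4 in 578 (19.4%) and all 5 in 292 (9.81%). The most frequent combination was Adarb2 with Sp8 and no other marker, in 482 cells (16.2%), followed by Adarb2 with Prox1 in 355 (11.9%). Among genes the rule did not use, the orphan nuclear receptor Nr2f2 was detected in 60.6 to 78.0% of CGE cells and in 12.5 to 23.1% of MGE comparator cells. Of the 16 listed CGE marker genes outside the rule, 6 (Nr2f2, Nr2f1, Cnr1, Cxcl14, Synpr and Egln3) were detected more often in every embryo's CGE cells than in any embryo's MGE cells. Cck and Kit were detected less often, at 2.72 to 9.66% and 1.82 to 6.90% against 10.4 to 21.3% and 8.16 to 15.1%, and the ranges of the other 8, Reln and Calb2 among them, overlapped. The MGE comparator cells (5742) had at least 1 UMI of Lhx6, the same Dlx, Neurod6 and cycling conditions, and fewer than 2 of the 5 markers. GABA synthesis genes were widespread in CGE cells, with Gad2 in 78.1 to 86.4% and Gad1 in 65.3 to 75.6%. Nxph1, a neurexin ligand of MGE interneurons, was found in 2.27 to 10.3% of CGE cells against 79.4 to 87.8% of MGE cells. Nkx2-1 was detected in at most 1.01%, striatal Isl1 in 0.733 to 5.17%, excitatory Slc17a7 in 0.271 to 1.72% and the oligodendrocyte precursor gene Pdgfra in at most 1.68%. Vip was at most 0.588%, so its RNA was barely detected at this age and depth.

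**Figure D1:**
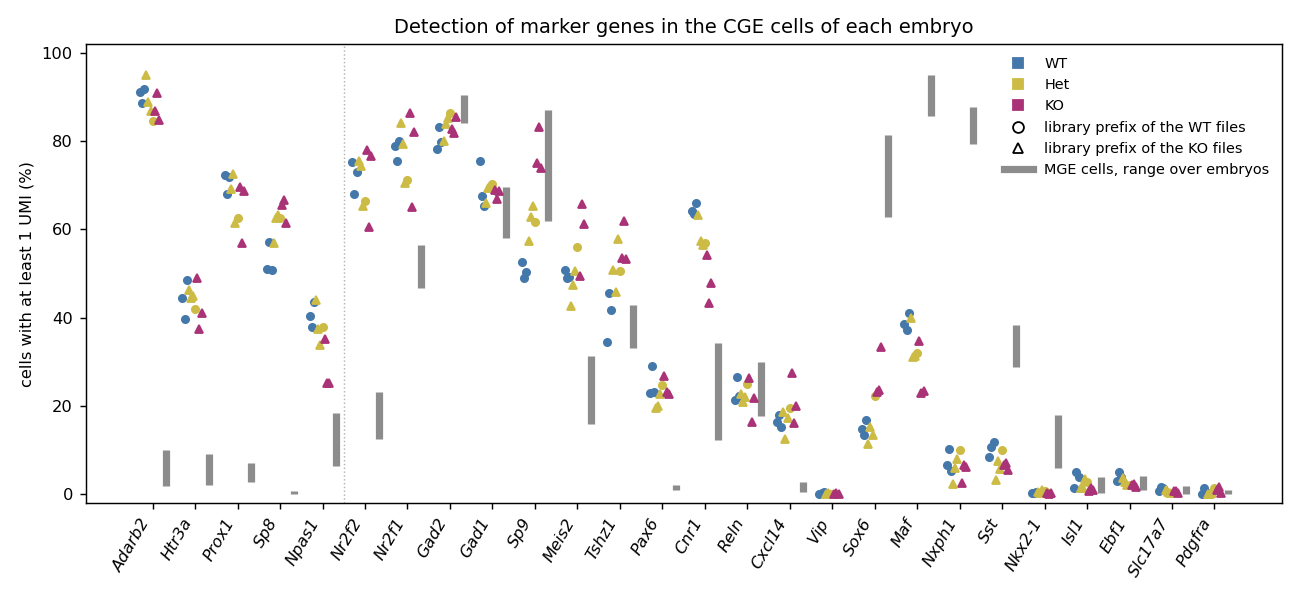
Percent of CGE cells with at least 1 UMI of 26 genes, 1 point per embryo, coloured by genotype; grey bars give the range over embryos in MGE comparator cells, and a dotted line separates the 5 marker genes that chose the cells. Nr2f2 lies above its grey bar in all 10 embryos, at 60.6 to 78.0% against 12.5 to 23.1%, and Nxph1 lies below its bar.

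The rule itself sets CGE cells apart from MGE cells, so their levels in WT embryos are given without a test. Pax6, a transcription factor, had a mean of 93.9 CPM in CGE cells and 3.27 CPM in MGE cells. The secreted signal Wnt5a had 101 and 8.20 CPM, the chemokine Cxcl14 70.8 and 5.65 CPM, the cell cycle gene Ccnd2 897 and 85.5 CPM, and the cannabinoid receptor Cnr1 665 and 73.9 CPM. In the other direction, somatostatin (Sst) had 17.1 CPM in CGE cells and 1345 CPM in MGE cells, the neurexin ligand gene Nxph1 23.2 and 516 CPM, the AMPA receptor subunit gene Gria1 34.6 and 483 CPM, and Cux2 26.9 and 300.4 CPM.

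A split by the homeobox gene Meis2, which the rule did not use, divided the class. Meis2 was detected in 42.7 to 65.7% of CGE cells, against 16.0 to 31.3% of MGE cells. Cells without a Meis2 UMI were richer in genes named for CGE interneurons. In the median embryo, Nr2f2 was detected in 90.4% of cells without and 54.8% of cells with Meis2, Cnr1 in 83.8 and 29.8%, the rule genes Htr3a and Npas1 in 64.2 and 23.9% and in 57.7 and 14.1%, and Reln, the Reelin gene, in 32.1 and 13.0%. The neuregulin receptor Erbb4 was detected in 89.5 and 58.2%, and the chemokine receptor Cxcr4, which guides tangential migration, in 27.1 and 7.72%. Each of these 7 genes was higher without Meis2 in all 10 embryos, though Htr3a and Npas1 helped to choose the cells and are a description only. Cells with Meis2 were richer in Foxp2 (41.3 against 5.08% without), Etv1 (32.1 against 3.55%), Zfhx3 (30.4 against 5.23%), Zfhx4 (23.7 against 6.06%), Six3 (15.8 against 1.23%) and Sp9 (80.3 against 43.2%), again in all 10 embryos. Sp8, also a rule gene, was higher with Meis2 in 9 of 10 embryos, at 69.0 against 50.3%. The median cell with Meis2 held 6785 to 8697 UMIs and the median cell without it 6048 to 7845, so the genes found more often without Meis2 were found in the shallower cells. Those found more often with Meis2 were found in the deeper cells, where depth runs the same way. Nr2f2 and Cnr1, which set CGE from MGE cells outside the rule, were thus more frequent without Meis2, whereas Foxp2, Etv1, Zfhx3, Zfhx4, Six3 and Sp9 were more frequent with it. "CGE cells" below therefore names the rule, and results are also given for each side of the split.

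**Figure D2:**
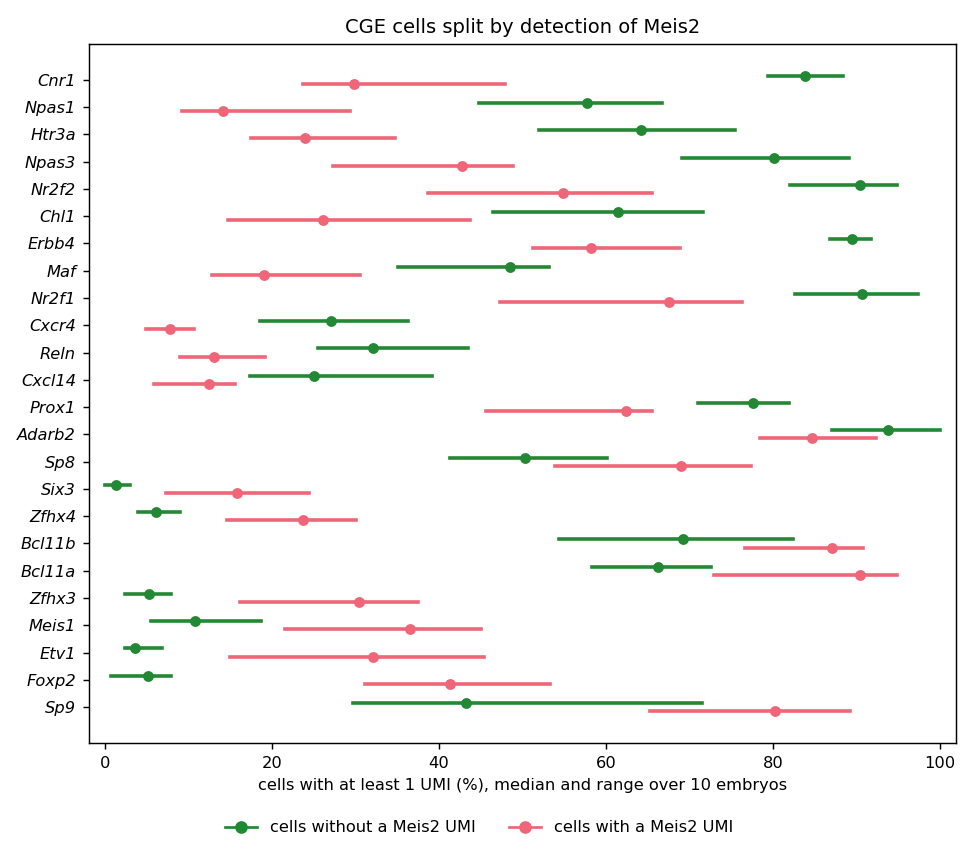
Percent of CGE cells with at least 1 UMI of 24 genes, in cells with and without a Meis2 UMI; points are medians and lines ranges over the 10 embryos. Cnr1, Npas1, Htr3a and Nr2f2 are higher without Meis2 and Foxp2, Etv1, Zfhx3 and Six3 are higher with it, and for these 8 genes the ranges do not overlap. The rule genes Npas1, Htr3a, Prox1, Adarb2 and Sp8 helped to choose the cells.

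Cells just inside the marker threshold lay between those outside it and those well inside. Kept cells with exactly 1 of the 5 markers that met all other conditions numbered 2959, those with 2 markers 1296 and those with 3 or more 1682. Nr2f2 was detected in 26.3, 49.6 and 87.0% of these in the median embryo, and Nr2f1 in 43.9, 63.9 and 89.6%. Meis2 ran the other way, at 87.0, 76.2 and 34.7%, as did Isl1 at 23.1, 3.61 and 0.829%.

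The share of CGE cells among kept cells did not pass a test between genotypes, and its size and direction depended on which cells were counted. The share was 3.33, 4.05 and 4.36% in WT 1 to 3, 3.77, 5.35, 5.27 and 4.66% in Het 1 to 4, and 4.66, 5.77 and 4.76% in KO 1 to 3. All 3 KO embryos lay above all 3 WT embryos, while Het overlapped both groups. The means were 3.91% ± 0.525 in WT (SD, n = 3), 4.76% ± 0.732 in Het (n = 4) and 5.06% ± 0.616 in KO (n = 3). KO exceeded WT by 1.15 percentage points (two-sided exact permutation p = 0.1, the smallest that 3 against 3 embryos allow, adjusted p = 0.257 over 3 comparisons). With cells thinned to 3000 UMIs the difference was 0.526 points and the groups overlapped (exact permutation p = 0.3, adjusted p = 0.686). With at least 3 markers it was 0.439 points, again with overlap (exact permutation p = 0.2, adjusted p = 0.343). Without cells that had Isl1, Ebf1, Six3 or Tshz1 UMIs or at least 3 of Meis2, the shares were 1.52, 1.52 and 1.95% in WT and 1.45, 1.15 and 1.26% in KO, a difference of -0.376 points (exact permutation p = 0.1, adjusted p = 0.15). With other totals the difference was positive and larger. Among cells that met the Dlx, Neurod6 and cycling conditions, CGE cells made up 14.9% ± 0.796 in WT (SD, n = 3) and 21.1, 20.5 and 18.8% in KO, a difference of 5.26 points. Without cells that carried at least 2 markers of another class, in both the count and the total, the shares were 7.21, 7.10 and 8.13% in WT and 12.5, 12.2 and 10.1% in KO, a difference of 4.13 points. That filter also took the cells of those other classes, such as excitatory neurons, out of the total. It left 830 to 1722 kept cells per embryo, so the share is one of another population. KO lay above WT with no overlap in both, again at the smallest p of the design (exact permutation p = 0.1, adjusted p = 0.15). Cells with a Meis2 UMI made up 50.7, 49.0 and 49.1% of CGE cells in WT, 42.7, 47.4, 50.7 and 56.1% in Het, and 49.5, 65.7 and 61.2% in KO. KO exceeded WT by 9.17 points (exact permutation p = 0.2, adjusted p = 0.3), with KO 1 inside the WT range. Because counts were summed over the CGE cells of each embryo, a changed mixture of cells and a changed level within a cell cannot be told apart. Fits of each Meis2 side hold only the detection of Meis2 fixed, and each side is still a sum over mixed cells.

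Gatad2b, the targeted gene (GRCm38 chromosome 3, 90293178 to 90363407, plus strand, GENCODE annotation), was checked first. Its level, in CPM after TMM normalization as for all genes below, was 157, 149 and 152 in WT, 107, 99.2, 115 and 110.1 in Het, and 81.2, 80.7 and 83.3 in KO CGE cells. The 3 genotypes did not overlap, Het 4 lay with the other Het embryos despite its prefix, and the labels held in every embryo. By edgeR's quasi-likelihood test, KO was lower than WT by a log2 fold change of -0.90 ± 0.08 (SE, adjusted p = 1.31e-05), and Het was lower than WT by -0.50 ± 0.07 (adjusted p = 0.0169). With the prefix as a covariate the KO change was -0.86 (adjusted p = 0.0165).

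KO and WT embryos were compared over 10732 genes in CGE cells, and a gene counted as called when its adjusted p was under 0.05 and its log2 fold change exceeded 0.25 in size. KO cells were higher in 386 genes (3.60% of those tested) and lower in 395 (3.68%). Of these, 3 are genes of the rule (Adarb2, Dlx2 and Neurod6). In 767 of the 781 the groups did not overlap, which is a description only, since the same embryos chose these genes. With the prefix as a covariate, where Het 4 alone links the prefixes, 26 genes were called, 23 of them also called without it. Of the 781, 764 kept their sign, which is no support, since both fits use the embryos that chose these genes. In the covariate fit 974 genes had an unadjusted p under 0.05. Where no gene differs, a share of about 0.05 of those tested is expected under that threshold, here and in the like counts below. Leaving out WT 1, WT 3, KO 2 or KO 3 gave 511, 407, 343 and 425 calls. Het 4, which shares the WT prefix, lay nearer the WT mean than Het 1 to 3 did in 546 of the 781 genes. These genes were chosen by a contrast that is also one of prefix. The like count over all genes tested is not given, so this is a description only. The immediate early gene Fos had 57.7, 57.2 and 58.8 CPM in WT, 169, 234 and 158 in Het 1 to 3, 57.7 in Het 4, and 158, 163 and 249.8 in KO. Het 4 lay with WT and Het 1 to 3 with KO, and the KO against WT change of Fos, 1.72 ± 0.33 (adjusted p = 0.00585), fell to 0.02 with the prefix as a covariate. The linker histone gene Hist1h1e lay at 152 to 246 CPM in WT, 223 in Het 4, 519.7 to 544 in Het 1 to 3 and 515 to 557 in KO.

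**Figure D3:**
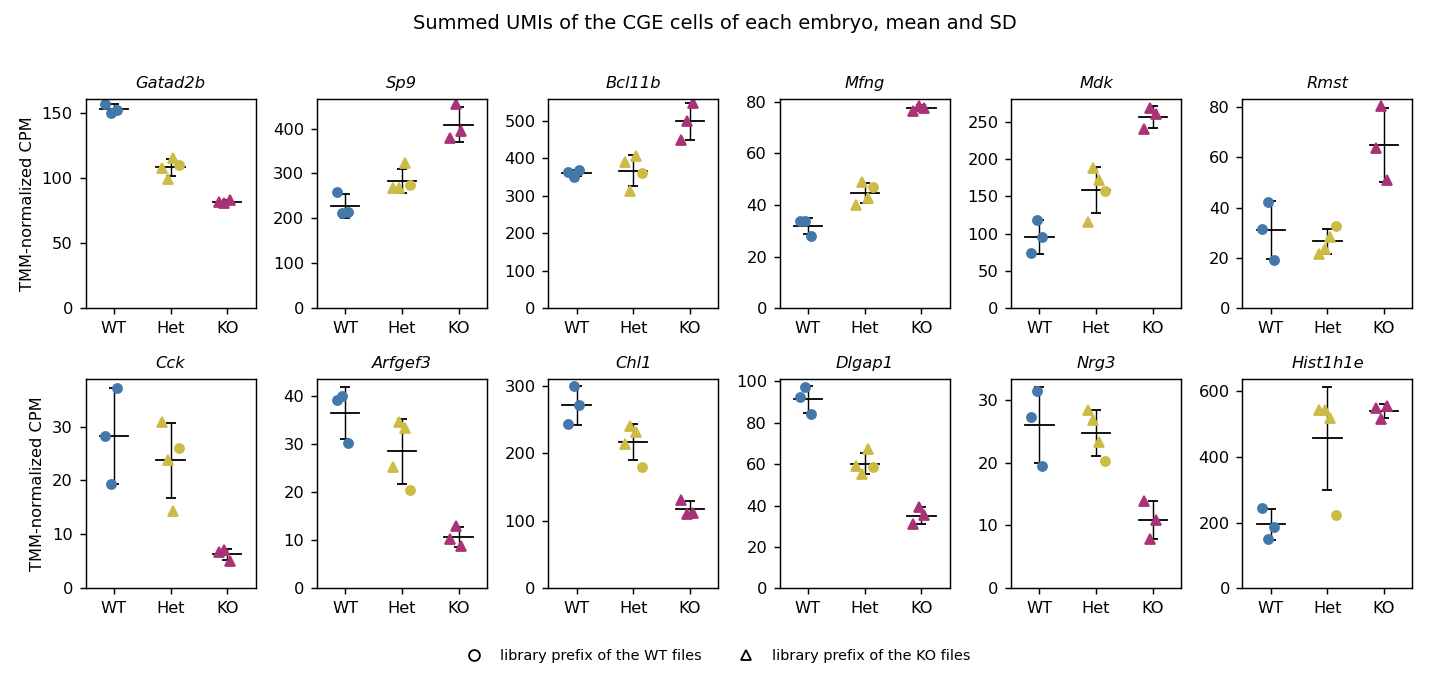
TMM-normalized CPM of 12 genes in the CGE cells of each embryo, with the mean and SD of each genotype; circles are embryos with the WT file prefix and triangles those with the KO file prefix. Chl1, Dlgap1, Arfgef3 and Cck are lowest and Mfng, Mdk and Sp9 highest in the 3 KO embryos, while Hist1h1e in Het 4 lies with WT at 223 CPM.

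Dlgap1, Chl1 and Arfgef3 were lower in KO. Dlgap1, a scaffold protein gene of excitatory synapses, had 92.5, 97.2 and 84.4 CPM in WT, 59.3, 55.2, 67.5 and 58.9 in Het, and 31.0, 39.1 and 35.3 in KO. The genotypes did not overlap, and Het lay between the others. KO was lower than WT by -1.38 ± 0.11 (edgeR adjusted p = 8.0e-06) and lower than Het by -0.77 ± 0.11 (adjusted p = 0.0074). Chl1, a cell adhesion molecule of the L1 family, had 243, 300.4 and 271 CPM in WT, 214, 241, 232 and 180.3 in Het, and 131, 111 and 112 in KO. All KO values lay below all others, by -1.21 ± 0.11 against WT (adjusted p = 1.99e-05) and -0.88 ± 0.11 against Het (adjusted p = 0.00176). Arfgef3, a member of the Arf guanine nucleotide exchange factor family, fell from 30.3 to 40.0 CPM in WT to 8.83 to 12.9 in KO (-1.76 ± 0.23, adjusted p = 0.000332), with Het at 20.5 to 34.6. For these 3 genes the KO against WT change passed also with the prefix as a covariate, at -1.42, -1.55 and -2.39 (adjusted p = 0.00336, 0.00092 and 0.00336). Chl1 was lower in KO on both Meis2 sides, by -0.97 ± 0.12 in cells without Meis2 (adjusted p = 4.51e-05) and by -1.30 ± 0.13 in cells with it (adjusted p = 0.000155).

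Of 22 synaptic adhesion genes tested, 0 were higher and 5 lower in KO, among them Chl1, Cntnap5a, Nlgn2 and Opcml, where 3.60% of all genes were higher and 3.68% lower. Their median log2 fold change was -0.27, against -0.01 over all genes. Among 14 glutamate receptor genes, 1 was higher (the kainate receptor subunit Grik3) and 4 lower (Gria4, Grin1, Grin2b and Grin3a), with a median of -0.46. Grin2b, the NMDA receptor subunit typical of young neurons, had 178, 218 and 183 CPM in WT, 148, 143, 135 and 164 in Het, and 105, 98.5 and 103 in KO (-0.92, adjusted p = 7.59e-05 against WT), with Het between the others and no overlap. Grin2b was detected in 61.6% of cells without and 30.0% of cells with Meis2 in the median embryo, and its adjusted p rose to 0.0866 with the prefix as a covariate. With the covariate Chl1 alone of the synaptic adhesion and glutamate receptor genes named here passed. Nlgn2 and Opcml went from -0.47 and -1.54 to -0.14 and -1.03, and apart from Grin2b the adjusted p of those that did not pass lay between 0.142 for Gria4 and 0.911 for Nlgn2. The calls on Nlgn2 and on Opcml, Grin1 and Grik3 were lost in 7 and in 4 each of the 10 fits that left out an embryo (adjusted p up to 0.194). None of 14 GABA receptor and chloride transporter genes was called, although their median was -0.36.

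Listed marker genes of the class that the rule did not use were lower in KO or did not pass. Cck, on that list, was detected less often in CGE than in MGE cells, as given above. Of 11 CGE marker genes outside the rule, 0 were higher and 3 lower (Cck, Cnr1 and Ndnf), beside 3.60% and 3.68% of all genes, with a median of -0.70. The other 5 of the 16 listed genes did not pass the filter on low counts. The summed level of all 16 overlapped, at 1860.4, 2154 and 2200.0 CPM in WT and 2283, 1555 and 1889 in KO. Cck had 28.3, 19.4 and 37.2 CPM in WT, 30.9, 23.7, 14.3 and 26.1 in Het, and 6.73, 7.07 and 5.05 in KO. The KO values lay below all 7 others, by -2.15 ± 0.31 against WT (edgeR adjusted p = 0.000886), while Het was -0.26 from WT (adjusted p = 0.679). The change against WT was -1.75 ± 0.32 in cells without Meis2 (adjusted p = 0.0019) and -2.65 ± 0.53 in cells with it (adjusted p = 0.0118). With the prefix as a covariate it was -1.92 (adjusted p = 0.118), and without the cells that had Isl1, Ebf1, Six3 or Tshz1 UMIs or at least 3 of Meis2 it was -0.74 (adjusted p = 0.449). Cck is also abundant in excitatory neurons. Excitatory marker genes summed to 96.5 to 110.3 CPM over WT embryos, 39.7 to 143 over Het and 52.8 to 81.0 over KO, and their part in the Cck change was not tested on its own. Without cells that carried at least 2 markers of another class, excitatory neurons among the classes, the Cck change was -1.62 and did not pass (adjusted p = 0.107). Of 8 excitatory marker genes tested, 0 were higher and 1 lower (Bhlhe22, against 3.68% of all genes), with a median of -0.70. Cnr1 had 568, 629 and 781 CPM in WT and 529, 370.0 and 319 in KO (-0.70 ± 0.17, adjusted p = 0.0164). Its change was -1.45 ± 0.24 in cells with Meis2 (adjusted p = 0.00516) and -0.23 ± 0.11 in cells without (adjusted p = 0.268). Leaving out WT 3, KO 2 or KO 3 took the Cnr1 call away, with an adjusted p of up to 0.0897. Cnr1 and Ndnf had changes of -0.97 and -1.53 with the prefix as a covariate and did not pass (adjusted p = 0.195 and 0.645). Ndnf, a secreted protein of neurogliaform cells, rested on WT 2 (72.1 CPM against 8.71 and 16.9 in WT 1 and 3), and leaving embryos out moved its change between -2.24 and -0.45.

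Sp9, Mfng and Mdk were higher in KO. Sp9, a zinc finger factor of ventral forebrain neurons, had 259, 211 and 214 CPM in WT, 267, 268, 324 and 274 in Het, and 379, 454 and 394 in KO. The genotypes did not overlap, and KO was higher than WT by 0.84 ± 0.10 (edgeR adjusted p = 0.000195), or by 0.78 with the prefix as a covariate, which did not pass (adjusted p = 0.0921). Without the covariate it was called on both Meis2 sides, at 1.06 ± 0.14 without Meis2 (adjusted p = 6.19e-05) and 0.64 ± 0.11 with it (adjusted p = 0.00516). Detection of Sp9 was 49.0 to 52.6% over WT embryos, 57.3 to 65.2% over Het and 73.8 to 83.2% over KO. Mfng, a glycosyltransferase that modifies Notch receptors, had 33.7, 33.6 and 28.1 CPM in WT, 40.1, 49.0, 42.7 and 46.9 in Het, and 76.3, 78.6 and 77.8 in KO (1.29 ± 0.11, adjusted p = 1.04e-05). Its change passed with the prefix as a covariate at 1.37 (adjusted p = 0.00433) and on both Meis2 sides, at 1.87 ± 0.25 without and 0.94 ± 0.16 with Meis2 (adjusted p = 6.19e-05 and 0.00659). Mdk, the secreted growth factor midkine, had 73.5, 118 and 94.7 CPM in WT, 115, 187, 172 and 158 in Het, and 240.2, 269 and 260.3 in KO (1.41 ± 0.16, adjusted p = 9.9e-05). Without cells that carried at least 2 markers of another class, the Mdk change was 0.66 ± 0.25 and did not pass (adjusted p = 0.215). The Mdk change was found in cells with Meis2 (1.48 ± 0.19, adjusted p = 0.00095) and did not pass in cells without (0.22 ± 0.31, adjusted p = 0.791). The difference between the sides was not tested.

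Of 32 interneuron transcription factor genes tested, 9 were higher (among them Bcl11a, Bcl11b, Ldb1, Nfia, Sox11, Sp9, Zfhx3 and Zfhx4) and 5 lower (Lmo1, Lmo3, Mef2c, Myt1l and Nfix), with a median of 0.22, where 3.60% of all genes were higher and 3.68% lower. None of the 8 named higher genes passed with the prefix as a covariate. Sox11 went from 0.29 to 0.06 (adjusted p = 0.874) and Ldb1 from 0.46 to 0.20 (adjusted p = 0.734), while Bcl11a, Bcl11b and Zfhx4 were at 0.44, 0.43 and 0.81 (adjusted p = 0.564, 0.403 and 0.127). Without the covariate, the calls on Bcl11a and Ldb1 were lost when KO 2 was left out, that on Bcl11a also without WT 3 (adjusted p up to 0.0699 and 0.0521). Among the 5 lower genes, Lmo3 passed with the covariate (-0.94, adjusted p = 0.0399), as did Nfix and Lmo1, and Mef2c and Myt1l did not (-0.59 and -0.62, adjusted p = 0.204 and 0.148). Among 7 pan-GABAergic genes, 2 were higher, Sp9 among them, and Gad1 and Gad2 had changes of -0.20 and -0.12 that did not pass. Nfia, a nuclear factor I gene, rose by 0.86 ± 0.12 (adjusted p = 0.000525), but Het 4 lay at 236 CPM within the WT range of 206 to 244, and the change was 0.37 with the covariate (adjusted p = 0.383). Nfix, of the same family, had 732, 647 and 776 CPM in WT and 434, 385 and 459 in KO (-0.75 ± 0.13, adjusted p = 0.00265), and passed with the covariate at -1.14 (adjusted p = 0.0228). Zfhx3 rose by 0.97 ± 0.16 (adjusted p = 0.00216), a change of 0.86 ± 0.16 in cells with Meis2 (adjusted p = 0.00945) and -0.13 ± 0.41 in cells without (adjusted p = 0.931). It was 0.98 over all CGE cells with the prefix as a covariate and did not pass (adjusted p = 0.165). Lmo1, a LIM-only cofactor, fell from 21.8 to 28.5 CPM to 5.89 to 10.8 (-1.65 ± 0.29, adjusted p = 0.00318), also with the covariate (-2.24, adjusted p = 0.0453). None of 7 MGE marker genes was called (median 0.01). The listed MGE markers outside the rule summed to 464, 366 and 440 CPM in WT and 431, 342 and 413 in KO, which overlap. Sox6, a factor of MGE interneurons, was detected in 13.4 to 16.8% of WT, 11.4 to 22.2% of Het and 23.1 to 33.3% of KO CGE cells. Detection depends on the depth of a cell, and this difference was not tested.

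Further large increases by the naming rule are given gene by gene. Gmnn, the geminin gene that limits replication licensing, had 3.81, 7.47 and 7.35 CPM in WT and 15.7, 24.9 and 22.7 in KO (1.72 ± 0.30, edgeR adjusted p = 0.00329). Rrm2, a ribonucleotide reductase subunit, had 7.08, 8.97 and 7.79 CPM in WT and 13.0, 27.0 and 31.1 in KO (1.56 ± 0.28, adjusted p = 0.00383). The linker histone gene Hist1h1b had 39.2, 31.0 and 40.2 CPM in WT, 59.3, 71.9, 96.2 and 65.0 in Het and 85.3, 116 and 140.0 in KO (1.64 ± 0.19, adjusted p = 0.000125). With the prefix as a covariate these changes were 1.57, 1.73 and 1.40 and did not pass (adjusted p = 0.308, 0.148 and 0.0866), and that of Rrm2 was 0.75 with cells thinned to 3000 UMIs (adjusted p = 0.372). The Hist1h1b change was 1.55 ± 0.19 in cells with Meis2 (adjusted p = 0.00095) and 1.05 ± 0.40 in cells without (adjusted p = 0.163). Gmnn and Rrm2 were called in cells with Meis2 (1.60 and 1.38, adjusted p = 0.00945 and 0.0225) and had no value in cells without. The call on the replicative helicase gene Mcm3 (1.47 ± 0.37, adjusted p = 0.0245) was lost without KO 2 or KO 3, where the adjusted p reached 0.101. It did not pass with the prefix as a covariate (2.03, adjusted p = 0.181) or in cells with Meis2 (1.22, adjusted p = 0.0607). Of 7 radial glia genes, 3 were higher (Nes, Sox2 and Sox9, against 3.60% of all genes), with a median of 0.39, and none of these 3 passed with the covariate (adjusted p = 0.0651, 0.276 and 0.525). The calls on Nes and Sox9 were lost in 2 and 6 of the fits that left out an embryo (adjusted p up to 0.0787 and 0.144). The summed level of all listed radial glia genes, tested or not, was 859 to 1472 CPM over the WT embryos, 902 to 1118 over Het and 1013 to 1128 over KO. Sox2 was detected in 85.0 to 96.0% of CGE cells, and the part of progenitor RNA in these increases was not tested. Lgals1, the galectin-1 gene, had the largest increase by the naming rule, with 2.72, 8.59 and 6.49 CPM in WT, 17.9, 8.17, 17.1 and 14.4 in Het and 35.5, 25.4 and 37.0 in KO (2.37 ± 0.31, adjusted p = 0.000332). The polarity gene Crb1 had 8.22 to 10.3 CPM in WT and 19.1 to 34.6 in KO (1.49 ± 0.30, adjusted p = 0.00736). Among decreases, the matrix protein gene Fbln2 had a mean of 24.8 CPM ± 6.27 in WT (SD, n = 3) and 9.88, 7.07 and 9.25 CPM in KO (-1.51 ± 0.25, adjusted p = 0.00216). Lgals1, Crb1 and Fbln2 kept their direction but did not pass with the prefix as a covariate (adjusted p = 0.0866, 0.344 and 0.116). Lgals1 was called in cells with Meis2 (2.44, adjusted p = 0.00233) and had no value in cells without.

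Marker genes of neighbouring ventral neurons were counted next. Of 9 striatal marker genes, 0 were higher and 2 lower (Ebf1 and Isl1), with a median of -0.70, where 3.60% of all genes were higher and 3.68% lower. Isl1 had 13.1, 41.1 and 33.7 CPM in WT and 3.14, 13.7 and 1.68 in KO (-2.26 ± 0.54, adjusted p = 0.0171), so KO 2 overlapped WT 1. Both calls were lost when WT 3, KO 1 or KO 3 was left out, that on Isl1 also without WT 2, with adjusted p up to 0.0841 for Isl1 and 0.0716 for Ebf1. The Ebf1 change, -2.36, turned to 0.08 when at least 3 marker genes were asked of a cell (adjusted p = 0.97). The summed striatal markers came to 361 to 442 CPM over WT embryos, 269 to 394 over Het and 237 to 471 over KO. Of 5 olfactory bulb and intercalated cell genes, Tshz1 was higher (0.67 ± 0.18, adjusted p = 0.0334, lost without any 1 of the WT embryos or KO 2, with adjusted p up to 0.182) and 0 were lower, with a median of 0.30. Fitted with the prefix as a covariate, Isl1, Ebf1 and Tshz1 had changes of -2.57, -2.25 and 0.35, and none of the 3 passed (adjusted p = 0.284, 0.395 and 0.79).

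**Figure D4:**
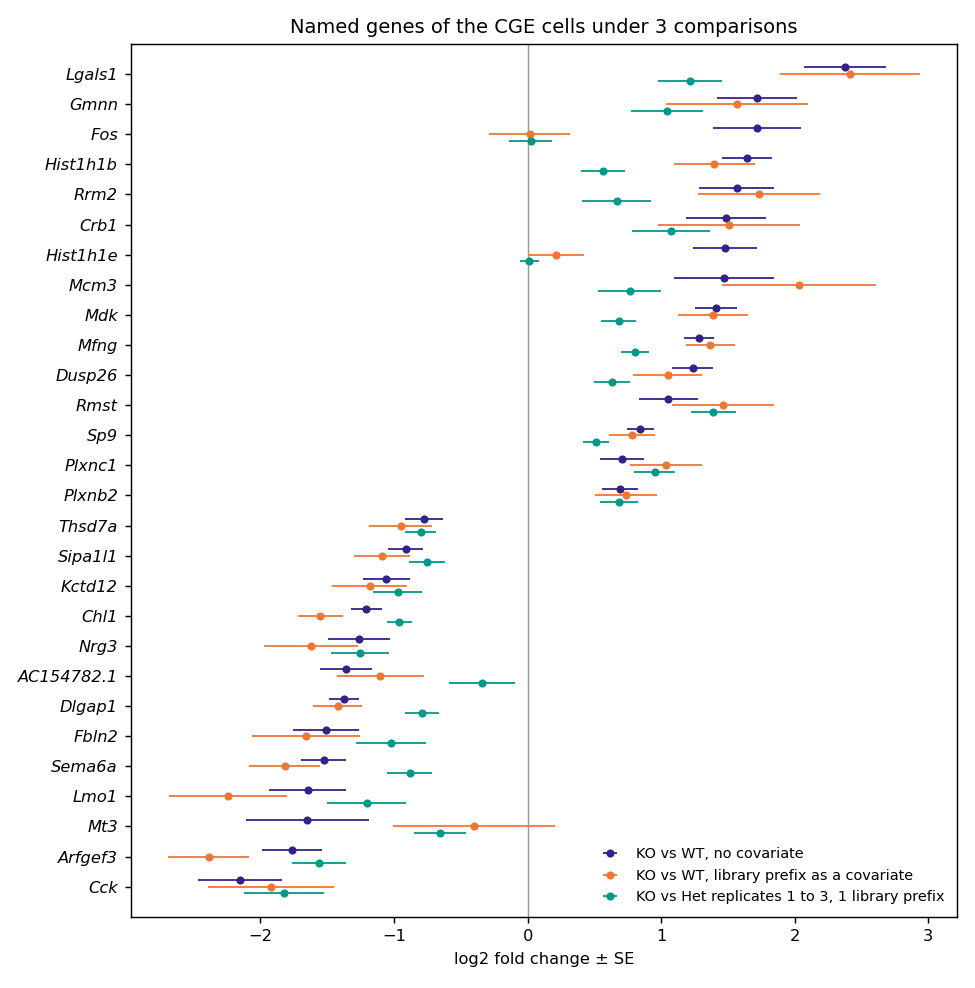
Log2 fold change with SE of 28 named genes in CGE cells, for KO against WT, for KO against WT with the file prefix as a covariate, and for KO against Het 1 to 3 of the same prefix. Chl1, Dlgap1, Arfgef3 and Mfng keep their direction in all 3 fits, while Fos (1.72) and Hist1h1e (1.48) fall to 0.02 and 0.21 with the covariate.

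KO and Het embryos, which differ in Gatad2b dosage and can be compared within 1 prefix, were then set side by side. These values share the KO embryos with those above. Against all 4 Het embryos, 13 genes were higher in KO (0.121% of those tested) and 15 lower (0.140%), and 1061 genes had an unadjusted p under 0.05. Within the prefix, against Het 1 to 3, 35 genes were called, 25 of them also called against all 4. The 28 calls fell to 14, 4 and 15 without Het 1, 2 or 3, and to 5 and 7 without KO 2 or KO 3. Chl1, Dlgap1 and Mfng were called within the prefix, at -0.96, -0.79 and 0.81 (edgeR adjusted p = 0.000165, 0.00988 and 0.00183), and against all 4 Het embryos they stayed called with any single embryo left out. They were called in cells without Meis2, at -0.89, -0.97 and 1.23 (adjusted p = 0.000426, 0.00591 and 0.00479), but not in cells with Meis2, at -0.29, -0.51 and 0.50 (adjusted p = 0.705, 0.695 and 0.367). The difference between the sides was not tested. In cells with Meis2, Chl1 was lower in Het than in WT (-1.01, adjusted p = 0.00174), unlike in cells without (-0.08, adjusted p = 0.874). The Het against WT changes of Dlgap1 and Mfng in cells with Meis2 did not pass (-0.57 and 0.44, adjusted p = 0.347 and 0.354). With cells thinned to 3000 UMIs, Dlgap1 and Mfng did not pass (-0.51 and 0.78, adjusted p = 0.299 and 0.0508). The largest decreases by the naming rule were Cck (-1.89 ± 0.30, adjusted p = 0.0189) and Arfgef3 (-1.40 ± 0.22, adjusted p = 0.0189). Without Het 2 or KO 3, and for Cck also without KO 2, they no longer passed (adjusted p up to 0.129 and 0.120). Nrg3, a neuregulin that binds Erbb4, had 28.4, 26.8, 23.3 and 20.2 CPM in Het and 13.9, 7.90 and 10.9 in KO (-1.16 ± 0.22, adjusted p = 0.0391). The voltage-gated potassium channel gene Kcnc2 had 23.5, 12.4, 16.7 and 17.8 CPM in Het and 5.39, 3.74 and 7.57 in KO (-1.62, adjusted p = 0.0253). Kctd12, an auxiliary subunit of GABA-B receptors, fell by 0.94 ± 0.17 on the log2 scale (adjusted p = 0.0259), and the postsynaptic protein gene Sipa1l1 by 0.70 ± 0.12 (adjusted p = 0.0253).

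The largest increase over Het by the naming rule was that of Rmst, a long noncoding RNA of neural progenitors. It had 31.6, 42.2 and 19.0 CPM in WT, 21.6, 23.3, 28.3 and 32.8 in Het, and 63.7, 80.2 and 50.9 in KO (1.26 ± 0.20 against Het, edgeR adjusted p = 0.0189). KO lay above all other embryos, and WT and Het overlapped. The change against Het was 1.31 ± 0.20 in cells with Meis2 (adjusted p = 0.0409) and 0.63 ± 0.60 in cells without (adjusted p = 0.865). The plexin receptor genes Plxnc1 and Plxnb2 were higher by 0.85 ± 0.15 and 0.67 ± 0.12 (adjusted p = 0.0253 and 0.0259), and the phosphatase gene Dusp26 by 0.69 ± 0.13 (adjusted p = 0.0421). Sp9 was higher by 0.53 ± 0.09 (adjusted p = 0.0253) and Mdk by 0.69 ± 0.14 (adjusted p = 0.0486). The direction of Mdk turned in cells without Meis2 (-0.18, adjusted p = 0.921) and without the cells that had Isl1, Ebf1, Six3 or Tshz1 UMIs or at least 3 of Meis2 (-0.11, adjusted p = 0.968). In cells with Meis2 alone, neither Sp9 (0.30, adjusted p = 0.5) nor Mdk (0.66, adjusted p = 0.32) passed. Bcl11b, also known as Ctip2, had 389, 311, 407 and 359 CPM in Het and 449, 498 and 547 in KO (0.44, adjusted p = 0.0486). Within the prefix Bcl11b, Dusp26 and Gatad2b did not pass (0.43, 0.63 and -0.39, adjusted p = 0.103, 0.0556 and 0.0676), while the other genes named for this comparison did. Except for Chl1, Dlgap1 and Mfng, each gene named for KO against Het, Gatad2b included (-0.40 ± 0.08, adjusted p = 0.0421), lost its call without at least 1 embryo. The highest adjusted p with an embryo left out was 0.128 for Sipa1l1, 0.131 for Rmst, 0.145 for Sp9, Kcnc2 and Plxnc1, 0.151 for Dusp26, 0.159 for Plxnb2, 0.180 for Kctd12, 0.187 for Gatad2b, 0.207 for Nrg3, 0.247 for Mdk and 0.296 for Bcl11b.

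Het and WT embryos differed in few genes. Of those tested, 14 were called (0.130%), 7 in each direction, and 1341 had an unadjusted p under 0.05. A share of about 0.05 of those tested is expected under that threshold where no gene differs, also in the fits below. Besides Gatad2b, Dlgap1 was lower by -0.60 ± 0.10 (edgeR adjusted p = 0.0185), and the nuclear noncoding RNAs Malat1 and Meg3 by -0.43 each (adjusted p = 0.0169 and 0.0185). Malat1 had 44780.3, 39986 and 44238 CPM in WT, 31770.1, 28838 and 30740.5 in Het 1 to 3 and 36633 in Het 4. Higher genes were the stress response gene Gadd45g (0.96 ± 0.15, adjusted p = 0.0185), Hist1h1b (1.01 ± 0.19, adjusted p = 0.0384), Hist1h1e (1.23 ± 0.23, adjusted p = 0.0388), the histone H3.3 gene H3f3b (0.40 ± 0.07, adjusted p = 0.0384) and Tpt1 (0.28 ± 0.04, adjusted p = 0.0185). The Hist1h1b change was 1.14 in cells with Meis2 (edgeR adjusted p = 0.0374) and 0.15 in cells without (adjusted p = 0.947). None of the genes named here held its call in all 10 fits that left out an embryo. The calls on Hist1h1e and H3f3b were lost in 9 of them, all but the one without Het 4 (adjusted p up to 0.184 and 0.160), and those on Hist1h1b and Tpt1 in 6, Meg3 in 5, Dlgap1 and Gadd45g in 4, and Gatad2b and Malat1 in 3 (adjusted p up to 0.148). With the prefix as a covariate, which leaves Het 4 alone to be compared with WT, 0 genes were called by edgeR and 563 had an unadjusted p under 0.05. Gatad2b, Dlgap1 and Meg3 then had changes of -0.47, -0.63 and -0.33, and Hist1h1b and Tpt1 of 0.83 and 0.22. Hist1h1e was at 0.20, H3f3b at 0.12, Gadd45g at 0.55 and Malat1 at -0.23, each smaller than without the covariate by over 1.5 times. The adjusted p of these 9 genes ran from 0.73 to 0.944. DESeq2 called 54 genes without the covariate, and only 6 of the 14 edgeR calls were among them. Gatad2b, Dlgap1, Gadd45g and Hist1h1b had no adjusted p by DESeq2 and did not count as called. Leaving out Het 4 raised the count to 163, leaving out WT 2, Het 1, Het 3 or KO 2 gave 6, 8, 3 and 8, and leaving out WT 1, WT 3 or Het 2 gave 0 by edgeR (1057, 998 and 998 genes at an unadjusted p under 0.05).

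Whether the KO change differed between CGE and MGE cells was tested as an interaction, with the embryo as a block. Of 11782 genes, 95 were called (0.806%), 52 with the higher and 43 with the lower change in CGE cells, and 2 of them (Htr3a and Npas1) are rule genes. Without WT 1, KO 2 or KO 3 the count was 49, 53 and 60. Of the genes named for this comparison, Wnt5a had the lowest adjusted p. It had 99.5, 87.4 and 113 CPM in WT and 155, 121 and 132 in KO CGE cells, but 5.85, 7.42 and 11.1 CPM in WT and 36.9, 37.9 and 44.2 in KO MGE cells. The changes were 0.45 and 2.28, a difference of -1.84 ± 0.17 (edgeR adjusted p = 5.86e-05). These are ratios over unequal WT levels, and the rises in CPM were not compared by a test. The change in CGE cells lost its call in 4 of the 10 fits that left out an embryo (adjusted p up to 0.119). With the prefix as a covariate it was 0.24 and did not pass (adjusted p = 0.773). The difference between the classes was -1.63 for KO against Het within the prefix (adjusted p = 0.000298), and that of KO against WT passed with each embryo left out. Nrg3 was lower in KO in CGE cells (-1.26) and not in MGE cells (0.00), a difference of -1.26 ± 0.24 (adjusted p = 0.0153) that was -1.35 within the prefix (adjusted p = 0.0216). It was lost without WT 1, WT 2, KO 2 or KO 3 (adjusted p up to 0.0923). Meis2 fell in MGE cells from 207 to 304 CPM in WT to 83.0 to 127 in KO, against 917 to 1118 and 960.4 to 1569 CPM in CGE cells, a difference of 1.54 ± 0.20 (adjusted p = 0.00101). Six3, Zfhx3 and Zfhx4, which ran with Meis2 within the CGE cells, had values of -1.72, -0.56 and -1.34 in MGE cells and 0.32, 0.97 and 0.75 in CGE cells, of which that of Zfhx3 in MGE cells (adjusted p = 0.173) and that of Six3 in CGE cells (adjusted p = 0.468) did not pass. Nor did that of Meis2 in CGE cells (0.30, adjusted p = 0.324). The differences of these 4 genes did not pass within the prefix (adjusted p = 0.46 to 0.855). Cadps2, which primes dense-core vesicles, fell by 1.55 on the log2 scale in CGE cells and rose by 1.08 in MGE cells (difference -2.62 ± 0.47, adjusted p = 0.0107). The difference was -2.15 within the prefix (adjusted p = 0.13) and -1.60 with cells thinned to 3000 UMIs (adjusted p = 0.406), and passed in neither. The change in CGE cells alone (adjusted p = 0.0329) was lost without WT 1, WT 2, KO 1 or KO 2 (adjusted p up to 0.134). The difference of Zfhx4 was lost with thinned cells too (1.47, adjusted p = 0.14).

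Against cells with striatal genes (2280 cells with at least 2 of Isl1, Ebf1, Foxp1 and Zfp503, and Isl1 or Ebf1 among them), 25 of 11362 genes were called (0.220%), 12 with the higher and 13 with the lower change in CGE cells, and 1 of them (Adarb2) is a rule gene. The count was 11, 4, 8, 14 and 15 without WT 2, WT 3, KO 1, KO 2 or KO 3, and 44 without Het 4. Sp9 rose in CGE cells (0.84), and its value of -0.35 in the striatal-gene cells did not pass (adjusted p = 0.397), where it had 69.5 to 95.4 CPM in WT and 51.2 to 74.9 in KO, a difference of 1.20 (edgeR adjusted p = 0.0209). Lmo1 had a change of -1.65 in CGE cells and a value of 0.63 in striatal-gene cells that did not pass (adjusted p = 0.319), a difference of -2.22 (adjusted p = 0.0209). Peg10, an imprinted gene, had 59.8 to 70.4 CPM in WT and 139 to 164 in KO striatal-gene cells (1.25), against -0.24 in CGE cells, which did not pass (adjusted p = 0.561; difference -1.49, adjusted p = 0.0178). The call on Sp9 was lost without WT 3, KO 1 or KO 2 (adjusted p up to 0.0737), that on Lmo1 without WT 2, WT 3 or KO 3 (up to 0.126), and that on Peg10 without WT 2 or WT 3 (up to 0.0676). None of the 10 genes named for this comparison passed for KO against Het within the prefix.

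**Figure D5:**
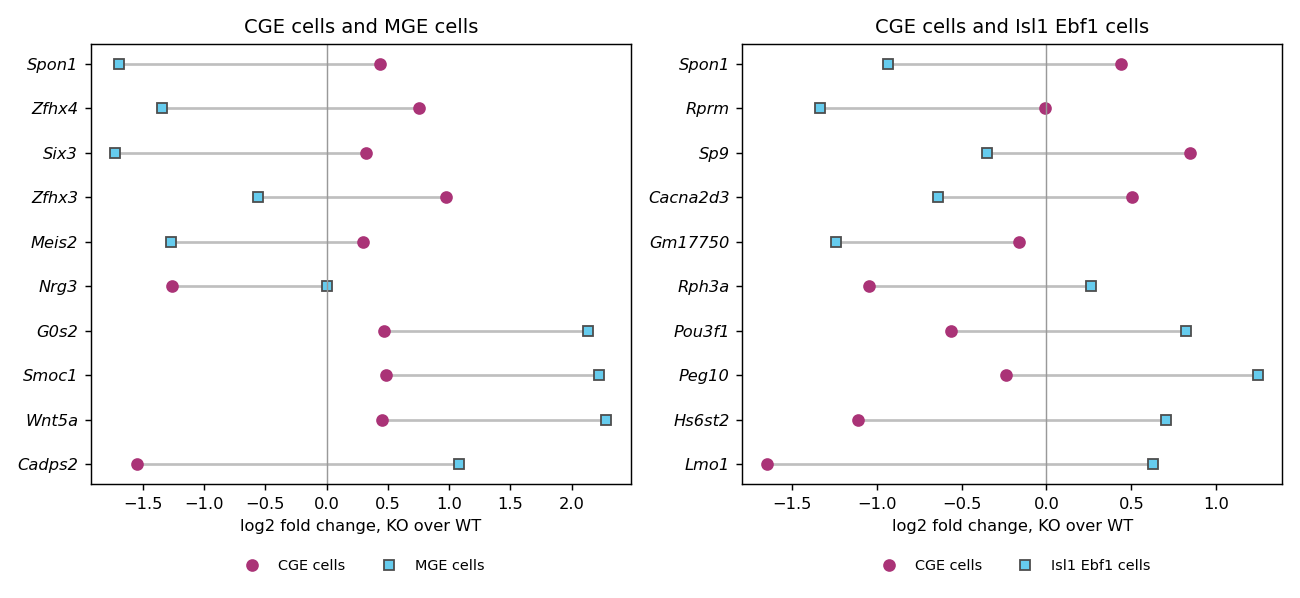
Log2 fold change of KO against WT in CGE cells against that in MGE cells and in cells with striatal genes, for the 10 genes named in each comparison. Wnt5a changes by 0.45 in CGE and 2.28 in MGE cells, and Nrg3 by -1.26 and 0.00.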

How the data were processed

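Single-cell 3′ RNA-seq libraries of 10 embryos were used. The authors deposited raw UMI counts per gene and cell, which per the file headers and labels were made with Cell Ranger 6.0.2 on mm10, and the study's methods name another Cell Ranger version. The cells and gene lists were chosen with earlier results of these data known, and lists taken from the study are not independent evidence. Cells were selected by their counts, with no clustering, and no doublet caller was run. As a stand-in, cells with at least 2 markers of another class were removed, which left 1186 CGE cells, and Sox2, found in most CGE cells, counted among those markers. Counts were summed per embryo and class. In R 4.3.3, edgeR 4.0.16 (filterByExpr, TMM, glmQLFit, glmQLFTest) was fitted to all 10 embryos, with Benjamini-Hochberg adjustment over all genes tested. SE is the absolute log2 fold change divided by the square root of F. Interactions had the embryo as a block. DESeq2 1.42.0 was an alternative. Shares were compared by two-sided exact permutation tests in scipy 1.17.1. P-values measure the spread between embryos. Scripts were tested on simulated data. Genes were named from lists, and as the 8 largest changes each way per comparison (5 for interactions) among called genes with groups that did not overlap and a mean of at least 20 CPM in the higher group, leaving out rule genes and genes the study had removed. Kept cells per embryo numbered 5147 to 8103. Some genes are not reported here.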

Additional observations from a re-analysis of the deposited data

Results flagged for a closer look

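Of 65 groups of 4 Het embryos tested with Dixon's ratio (critical value 0.829), 6 had an embryo apart from the other 3, where chance gives about 1 in 20. In CGE cells, erythroid and choroid plexus genes summed to 2217 CPM in Het 3 against 57.3 to 123 in the others, and oligodendrocyte precursor markers to 36.0 CPM in Het 4 against 1.22 to 4.62. Het 4 also stood apart in Hist1h1e (223 CPM against 520 to 544) and Hnrnpa0 (895 CPM against 1239 to 1258), both at the level of WT, whose file prefix it shares. Fbln2 was high in Het 1 (24.1 CPM against 14.8 to 15.9) and Sp9 in Het 3 (324 CPM against 267 to 274).

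The KO against WT change differed between CGE cells and another class in the genes below, each by an interaction test in edgeR with an adjusted p under 0.05. Against MGE cells, the log2 difference (CGE minus MGE) was 2.13 for Spon1, 2.09 for Zfhx4, 2.08 for Six3, 1.56 for Zfhx3, 1.54 for Meis2, -2.62 for Cadps2, -1.84 for Wnt5a, -1.74 for Smoc1, -1.67 for G0s2 and -1.26 for Nrg3. The call on Spon1 (adjusted p = 0.0493) was lost in 7 of the 10 fits that left out an embryo (adjusted p up to 0.188). Within the prefix, as KO against Het, Spon1, Smoc1 and G0s2 had differences of 0.73, -0.88 and -0.73 that did not pass (adjusted p = 0.813, 0.319 and 0.512), and with cells thinned to 3000 UMIs G0s2 did not pass (-1.18, adjusted p = 0.419). The extracellular matrix gene Smoc1 had 5.05 to 7.55 CPM in WT and 20.0 to 33.4 in KO MGE cells, against 23.5 to 26.8 and 30.4 to 38.0 CPM in CGE cells. Against cells with striatal genes, the difference was 1.38 for Spon1, 1.34 for Rprm, 1.20 for Sp9, 1.14 for Cacna2d3, 1.05 for Gm17750, -2.22 for Lmo1, -1.80 for Hs6st2, -1.49 for Peg10, -1.40 for Pou3f1 and -1.36 for Rph3a. Gm17750 alone of these 10 stayed called with each embryo left out (adjusted p up to 0.178 for the others). None of the 10 passed within the prefix, and with thinned cells Spon1, Hs6st2, Pou3f1 and Rph3a did not pass (adjusted p = 0.262, 0.0791, 0.0637 and 0.364).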

How the results depend on the processing

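Counts of called genes moved with the processing. For KO against WT, 781 became 459 with DESeq2, 1275 without a filter on low counts, 26 with the prefix as a covariate, 464 with at least 3 markers, 177 without cells with Isl1, Ebf1, Six3, Tshz1 or high Meis2, 138 without mixed cells, 424 at 5% mitochondrial UMIs, 354 with cells thinned to 3000 UMIs and, in alternatives added after seeing the data, 238 in cells without Meis2, 312 in cells with it and 479 with Xist status as a covariate. Het against WT (14) gave in the same order of settings 54, 283 and 0, then 33 without the striatal-type cells, 0 at 5% mitochondrial UMIs (908 at an unadjusted p under 0.05), 0 within 1 prefix (517) and 7 with Meis2. KO against Het (28) gave 237 without the filter, 62, 10, 11, 7 and 17 under the stricter cell rules in the order above, 18 without and 1 with Meis2. The interactions (95 and 25) gave 321 and 173 without the filter and 13 and 3 within the prefix. Leaving out 1 embryo gave 343 to 997, 0 to 163, 4 to 31, 49 to 103 and 4 to 44 calls. The share differences reversed without those striatal-type cells, at -0.376 for KO against WT, -0.0500 for Het against WT and -0.326 for KO against Het, were 5.26, 3.22 and 2.04 points among cells passing the Dlx, Neurod6 and cycling conditions and 4.13, 3.10 and 1.03 without mixed cells, and ranged over 0.795 to 1.37, 0.559 to 1.18 and -0.0543 to 0.503 points with an embryo left out, reversing for KO against Het without Het 1 (-0.0323) and KO 2 (-0.0543). The total without mixed cells also lacked cells of the other classes. With cells thinned to 3000 UMIs the 3 share differences were 0.526, 0.374 and 0.152 points. With at least 3 markers they were 0.439, 0.411 and 0.0274. Replicate numbers did not pair embryos (same-number correlations -0.0978 to 0.213), and a replicate block gave 1059, 187 and 28 calls. Gene signs reversed for Mdk, KO against Het, without striatal-type cells (-0.11) and without Meis2 (-0.18), Ebf1 at 3 markers (0.0827) and Zfhx3 without Meis2 (-0.13). Of the gene values under alternatives, 2476 kept direction and call and 922 lost the call. With Xist status as a covariate, the KO against WT calls on Bcl11b, Cnr1, Gatad2a, Nes and Mcm3, among others, were lost (edgeR adjusted p = 0.0795, 0.0716, 0.0615, 0.0798 and 0.131). The causes were not tested. At 220 to 369 cells per embryo, genes of a few CPM rest on few molecules.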

Other observations

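Further gene groups were counted in KO against WT CGE cells, where 3.60% of all genes were higher and 3.68% lower. Of 27 interneuron migration genes, 1 was higher (the semaphorin receptor Plxna2, 0.49 ± 0.10, edgeR adjusted p = 0.00679, and 0.56 with adjusted p = 0.2 with the prefix as a covariate) and 4 were lower (Cntn2, Nrg3, Nrp1 and Sema6a), with a median log2 fold change of -0.06. Sema6a, a transmembrane semaphorin, had 63.1, 84.1 and 69.2 CPM in WT, 59.9, 40.4, 42.7 and 38.0 in Het, and 21.5, 25.8 and 28.2 in KO (-1.53 ± 0.17, adjusted p = 9.01e-05), and passed also with the prefix as a covariate (-1.82, adjusted p = 0.00924). Dcx, Cxcr4 and Erbb4, used by migrating interneurons, had changes of 0.23, 0.22 and -0.24 that did not pass. Of 22 voltage-gated channel genes, 0 were higher and 3 lower (Kcnc1, Kcnc2 and Scn8a), with a median of -0.37. Of 10 neuropeptide genes, Cck was lower and 0 were higher (median -0.26), and of 4 serotonin, acetylcholine and cannabinoid receptor genes Cnr1 was lower (median 0.07). Of 8 immediate early genes, 2 were higher (Fos and Jund), with a median of 0.48. Of the genes named here as called, Sema6a alone passed with the covariate, and Fos and Jund went from 1.72 and 0.71 to 0.02 and 0.36. The calls on Cntn2 and Nrp1 were lost in 4 and that on Scn8a in 8 of the 10 fits that left out an embryo (adjusted p up to 0.106, 0.0753 and 0.184).

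Among 15 NuRD genes in KO against WT CGE cells, 2 were higher (Cdk2ap1 and Gatad2a) and 2 lower (Chd5 and Gatad2b), with a median of 0.10. Over all genes tested, the shares beside this and the counts below were 3.60% higher and 3.68% lower. Gatad2a, the paralog of Gatad2b, had 35.4, 38.5 and 43.3 CPM in WT, 44.5, 56.0, 55.1 and 51.8 in Het, and 56.1, 47.4 and 58.0 in KO (0.46 ± 0.12, edgeR adjusted p = 0.0342), and 0.44 with the prefix as a covariate (adjusted p = 0.545). Its call was lost without WT 1, WT 2, KO 1 or KO 3 (adjusted p up to 0.118). Chd5, a remodeller, had 131 CPM in Het 4 against 80.3 to 95.4 in Het 1 to 3, and its change of -0.63 went to -0.06 with the covariate and did not pass without KO 2 (adjusted p = 0.0803). Of 7 regulators the study had picked from these libraries, 4 were higher (Bcl11b, Cdk2ap1, H3f3b and Nfia, median 0.47). None of the 4 passed with the prefix as a covariate, where Cdk2ap1 went from 1.33 to 0.57 (edgeR adjusted p = 0.535), H3f3b from 0.60 to 0.23 (adjusted p = 0.253), Nfia from 0.86 to 0.37 (adjusted p = 0.383) and Bcl11b from 0.47 to 0.43 (adjusted p = 0.403). Of 29 further genes it had named, 9 were higher and 11 lower (median -0.21). Since these were chosen on the same embryos, the counts are not independent evidence. Of endothelial and mural markers, 1 gene could be tested and was not called. Oligodendrocyte precursor, microglia and choroid plexus markers did not pass the filter on low counts, and the globin genes, which the study had removed, were left out of the list counts.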
